A study of Homo sapiens with 10 samples.

Results

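Oxidative phosphorylation runs on 4 proton-pumping or ATP-making complexes of the inner mitochondrial membrane, numbered I, III, IV and V, and most of their subunits are encoded in the nucleus. The mRNAs of these nuclear-encoded subunits were examined in MDA-MB-231 cells, a human triple-negative breast cancer line, grown without or with glucose and with or without the transcription factor BACH1. A symbol rule for the NDUF, UQCR, CYC1, COX and ATP5 families picked 116 of the 36432 gene symbols in the table. Of these, 81 are annotated subunits or subunit isoforms (37 of complex I, 9 of complex III, 17 of complex IV and 18 of complex V), 34 are ATP5 pseudogenes and 1 is the coding gene ATP5MGL. Together 77 of the 116 passed the filter of at least 1 TPM (a length-corrected share of the transcripts, with the same total in every library) in 2 or more libraries, namely 76 subunits and the pseudogene ATP5PBP5, and 5 subunits, all of complex IV, did not.

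BACH1 KO cells were 3 monoclonal lines made with CRISPR-Cas9, and WT cells were 2 control clones of the same line. Each clone was incubated for 40 hours in medium with 0 or with 4.5 g/liter glucose, which gives 1 library per clone and glucose level and 10 libraries in all. The clones are the replicates, each is 1 isolate, and the clones at 0 g/liter are the clones at 4.5 g/liter. Numbered clones of different genotypes are different cells.

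Complex I takes electrons from NADH and passes them to ubiquinone, complex III moves them on to cytochrome c, complex IV hands them to oxygen, and complex V uses the proton gradient to make ATP. Cells cultured without glucose cannot feed glycolysis from it and depend more on mitochondrial fuel such as glutamine. BACH1 is a heme-regulated factor that represses heme oxygenase and other genes with antioxidant response elements.

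The libraries carried the markers of the line, with VIM at 1321 to 2066 TPM and CD44 at 754 to 889 TPM, while CDH1, ESR1 and PGR stayed under 1 TPM in all 10. BACH1 transcript was at 12.6, 23.9 and 17.2 TPM in KO clones and 19.7 and 20.6 TPM in WT clones at 0 g/liter, and at 5.18, 2.84 and 3.42 TPM in KO clones and 8.61 and 8.13 TPM in WT clones at 4.5 g/liter. The transcript ranges overlap without glucose, and TPM does not measure the protein. HMOX1, the heme oxygenase gene that BACH1 represses, was at 1356 to 2033 TPM in KO clones and 532 to 568 TPM in WT clones at 0 g/liter, and at 274 to 470.4 TPM in KO clones and 6.58 to 8.78 TPM in WT clones at 4.5 g/liter. Mitochondrially encoded transcripts made up 22.4 to 29.7% of TPM, with BACH1 KO clone 1 highest at both glucose levels (29.1% at 0 g/liter and 29.7% at 4.5 g/liter). Read depth cannot be recovered from TPM and is unknown for each library. TPM is also a share of all transcripts in a culture, so less mRNA per cell, fewer cells with it and more of other transcripts cannot be told apart.

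Subunit mRNAs were abundant. The 116 symbols took 1.04 to 1.27% of all TPM. Of the complexes, the median subunit averaged 75.97 TPM over the 10 libraries in complex I, 103 TPM in complex III, 199.6 TPM in complex IV and 171 TPM in complex V. The most abundant were ATP5MF at 849 TPM, a membrane subunit of complex V, and COX6A1 at 550.0 TPM, a regulatory subunit of complex IV. NDUFA11 led complex I at 311 TPM and UQCRH led complex III at 288 TPM. The least abundant tested subunits were NDUFV3 in complex I at 12.6 TPM, UQCRFS1 in complex III at 34.65 TPM, NDUFA4 in complex IV at 70.6 TPM and ATP5F1E in complex V at 70.7 TPM. NDUFA4 carries a complex I name and is a subunit of complex IV, and it is counted there. Within complex I the highest and the lowest mean thus differed 24.6-fold, although each complex is assembled with fixed proportions of its subunits.

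**Figure D1:**
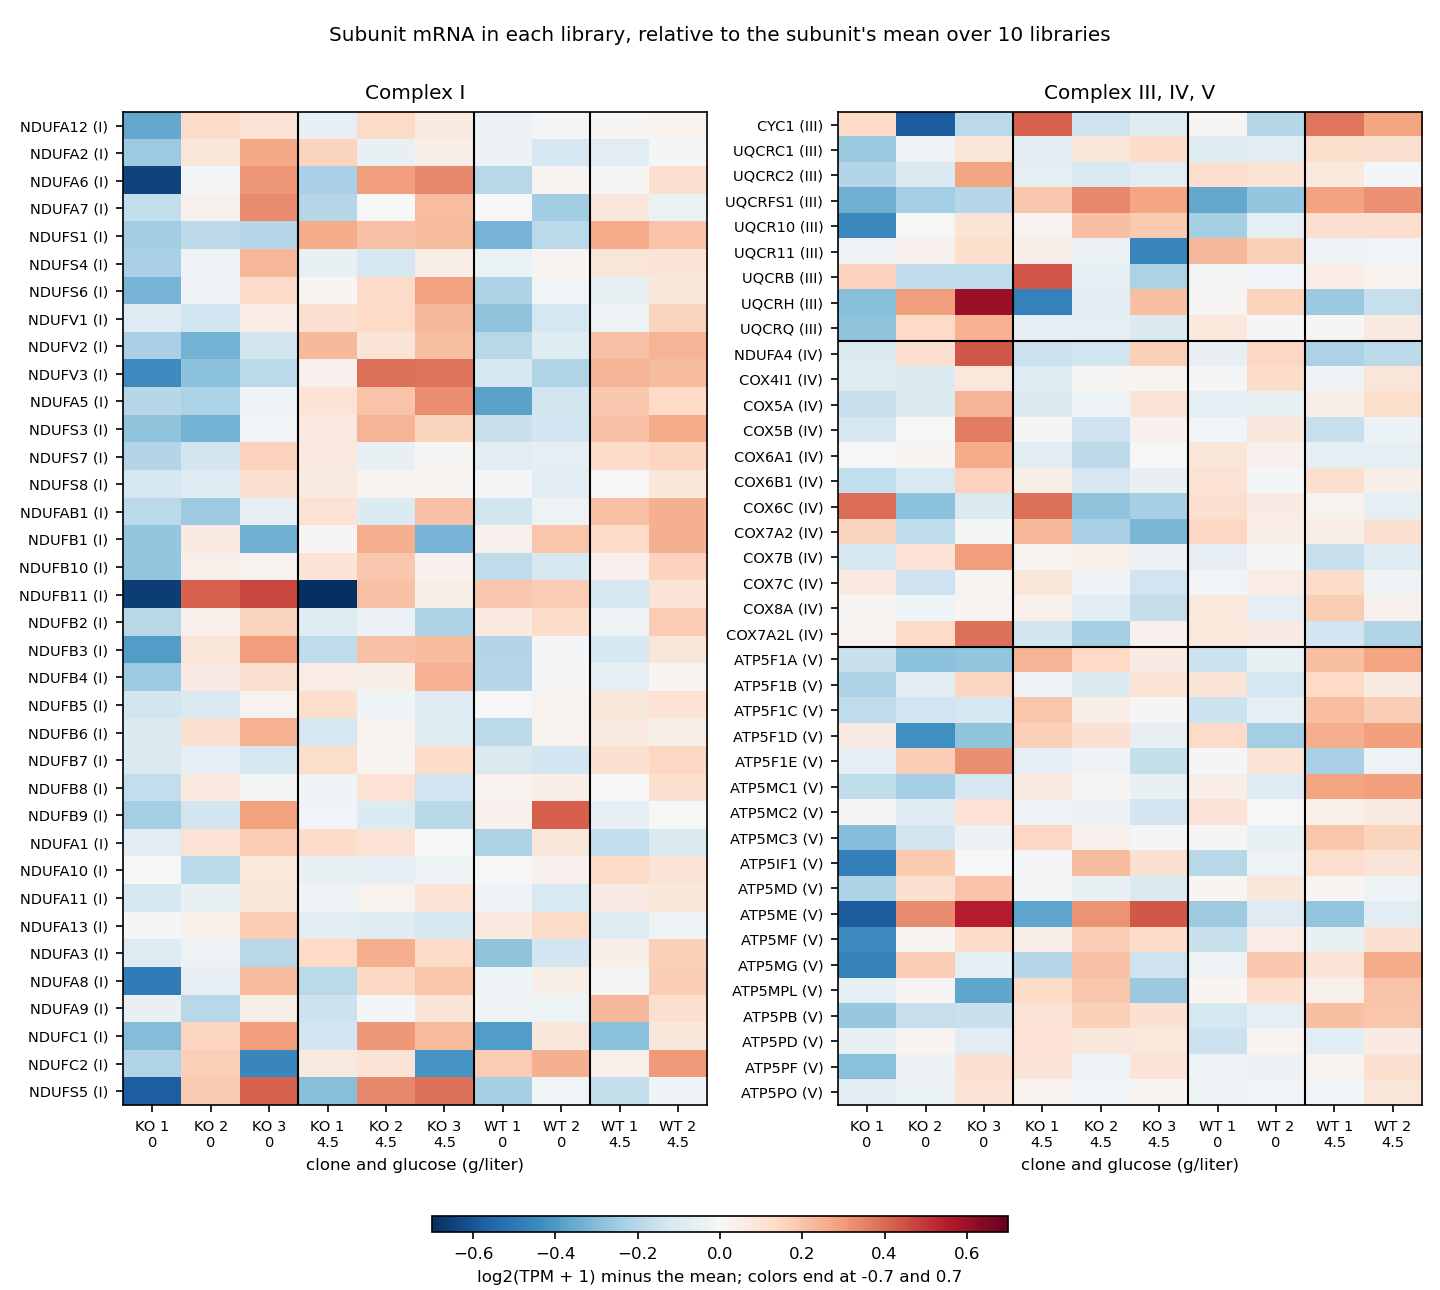
Level of 75 of the 76 tested subunits (rows) in each library (columns, clone number above glucose in g/liter), as log2(TPM + 1) minus the subunit's mean over the 10 libraries. Rows such as UQCRFS1, NDUFS1 and ATP5PB are lower in every library at 0 g/liter than at 4.5 g/liter, while NDUFB11 and COX6C split by clone, with BACH1 KO clone 1 apart at both glucose levels.

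In the reported fit, on the TPM scale and without pairing the libraries of a clone, a small set of subunit mRNAs was called lower without glucose. This held in both genotypes, and none was called higher. The calls changed with the scaling and with the pairing, as given below. With limma on log2(TPM + 1) and a Benjamini-Hochberg adjusted p under 0.05, 8 of the 77 tested members were lower and 0 higher in BACH1 KO cells, and 9 were lower and 0 higher in WT cells. Across all 13418 genes tested, 19.9% were lower and 9.05% higher in KO cells, and 15.9% were lower and 7.47% higher in WT cells. The members' shares, 10.4% lower in KO cells and 11.7% lower in WT cells, were below these backgrounds, which were not matched for transcript length. The 6 genes lower in both genotypes, ATP5F1A, ATP5PB, NDUFA5, NDUFS1, NDUFV2 and UQCRFS1, are 6 of the 8 in KO cells and 6 of the 9 in WT cells. NDUFS3 and NDUFV3 were called in KO cells alone, and ATP5F1C and ATP5MC1 were among those called in WT cells alone, with no test of a difference passed for any of them.

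The median log2 fold change of the members was -0.08 in KO cells and -0.08 in WT cells, against -0.15 in KO cells and -0.17 in WT cells for all genes. Median-ratio scaling moved the median of all genes to 0.0034 in KO cells and 0.01 in WT cells, and the members' medians became 0.10 and 0.12, so the sign of the members' median depends on the scaling. Relative to the median of all genes, the members' median was higher by 0.07 in KO cells and 0.08 in WT cells on the TPM scale, and by 0.09 and 0.11 after median-ratio scaling. All genes together are not matched to the members for transcript length. Against genes of like length, given below, the shorter subunits lay lower and the longer ones higher on the TPM scale. With that scaling, 3 members were lower (NDUFS1, NDUFV3 and UQCRFS1) and 4 higher (ATP5F1E, COX6A1, COX7A2L and NDUFA13) in KO cells, where 9.36% of all genes were lower and 12.9% higher. In WT cells, 1 was lower (UQCRFS1) and 1 higher (NDUFA13), where 5.78% of all genes were lower and 10.2% higher.

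Because each clone was cultured with and without glucose, the clone was also fitted as a fixed replicate block. With this block 18 members were lower and 4 higher in KO cells, and 16 were lower and 1 higher in WT cells. The shares over all genes were then 31.9% lower and 14.6% higher in KO cells, and 28.6% lower and 12.4% higher in WT cells. The 4 higher in KO cells were COX6A1, COX7A2L, NDUFB11 and UQCRH, and UQCRH was the 1 higher in WT cells. Of the genes described next, NDUFS3, NDUFV1, NDUFV3, ATP5F1C, CYC1 and NDUFAB1 were lower in both genotypes with the block, ATP5MC1 was lower in WT cells and NDUFS6 in KO cells. In every clone, 29 of the 76 subunits had a lower value without glucose and 7 had a higher one, against 41.7% and 18.4% of all genes, with no test of this count. The 7 were ATP5F1E, COX6A1, COX7A2L, NDUFA13, NDUFA4, NDUFB11 and UQCRH.

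By complex, the called genes were few, and their split over the complexes was not tested. In KO cells 5 of 37 complex I subunits, 1 of 9 in complex III, 0 of 12 in complex IV and 2 of 18 in complex V were lower. In WT cells 4, 1, 0 and 4 were lower in the same order. Over all genes 19.9% were lower in KO cells and 15.9% in WT cells, so the share of each complex lay below the background in KO cells, and in WT cells complex V, with 22.2%, was the exception. Median log2 fold changes were -0.09 in KO cells and -0.10 in WT cells for complex I, -0.11 and -0.05 for complex III, 0.08 and 0.06 for complex IV, and -0.14 and -0.10 for complex V. Relative to all genes the complex IV medians lay 0.23 higher in each genotype, and after median-ratio scaling they lay 0.25 higher.

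**Figure D2:**
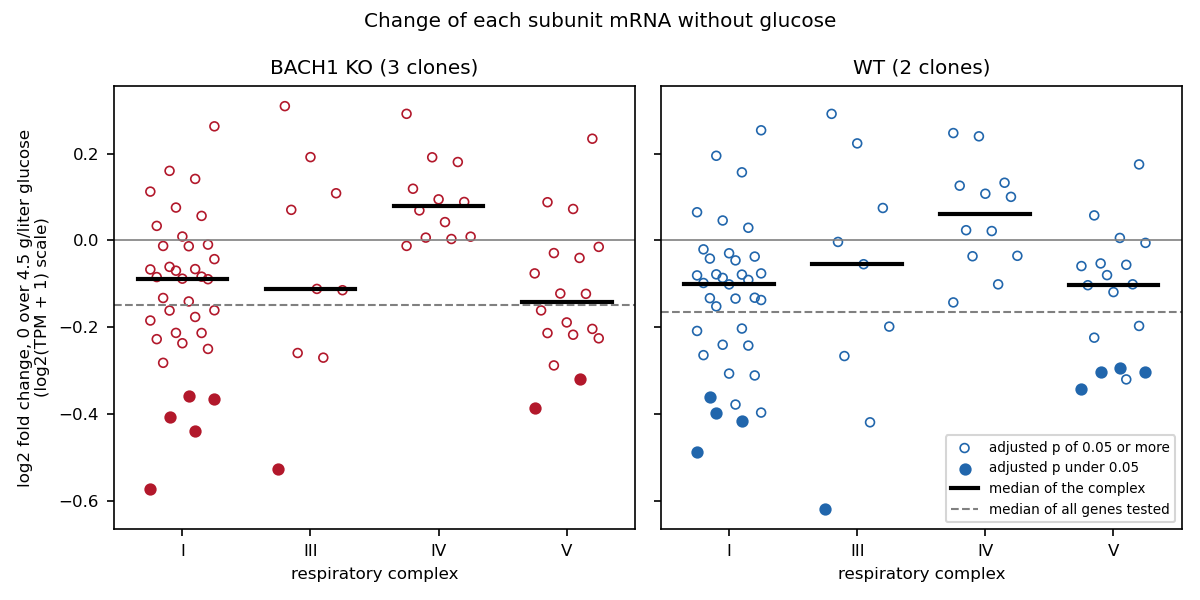
Log2 fold change (0 over 4.5 g/liter glucose, log2(TPM + 1) scale) of each tested subunit by complex, in BACH1 KO cells (left, 3 clones) and WT cells (right, 2 clones). Filled points passed the adjusted p of 0.05, black bars are the medians of the complexes and the dashed line is the median of all 13418 genes. The filled points all lie below 0 and none is in complex IV.

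The complex I genes called lower code for subunits of the peripheral arm, which faces the matrix. Its N module, where NADH is oxidized, had 3 of 10 subunits lower in KO cells and 2 of 10 in WT cells, with median log2 fold changes of -0.21 and -0.14. Against 19.9% and 15.9% of all genes, these counts are within about 1 gene of the background. Its Q module, where ubiquinone is reduced, held NDUFA5 and NDUFS3 among the called genes. None of the 21 subunits counted here in the membrane arm, NDUFA9 among them, was called in the reported fit, which has no block. Their log2 fold changes ran between -0.28 and 0.26 in KO cells and between -0.31 and 0.25 in WT cells. With the clone as a fixed block, NDUFA3 and NDUFB7 of the membrane arm were called lower in both genotypes and NDUFB11 higher in KO cells, so the absence of calls there depends on the fit.

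NDUFS1, the largest iron-sulfur subunit of the N module (chr2:206114817-206159509, GRCh38), was at 32.9, 34.4 and 33.9 TPM in KO clones at 0 g/liter and at 47.1, 45.2 and 45.9 TPM at 4.5 g/liter. WT clones had 31.1 and 34.2 TPM at 0 g/liter and at 47.0 and 45.2 TPM at 4.5 g/liter. All 5 values without glucose lay below all 5 with glucose, and the clones of each condition were within a few TPM of each other. The log2 fold change was -0.44 in KO cells (SE 0.081, adjusted p = 0.0047 from limma) and -0.49 in WT cells (SE 0.0996, adjusted p = 0.00988).

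NDUFV2, an iron-sulfur subunit beside the flavin site (chr18:9102630-9134345), was at 80.0, 74.3 and 85.8 TPM in KO clones at 0 g/liter, against 110.1, 99.97 and 109 TPM at 4.5 g/liter. In WT clones it was at 81.9 and 88.4 TPM at 0 g/liter, against 108 and 111 TPM at 4.5 g/liter. Again no value without glucose reached a value with glucose, and the log2 fold changes were -0.41 in KO cells and -0.36 in WT cells (adjusted p = 0.00838 and 0.0375 from limma). NDUFV1, the flavin-binding subunit that receives the electrons of NADH, missed the threshold, with -0.21 in KO cells (95% interval -0.42 to -0.0037) and -0.26 in WT cells (-0.52 to -0.0076).

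NDUFV3, a small accessory subunit of the same module, was at 8.81, 9.98 and 10.7 TPM in KO clones at 0 g/liter and at 12.6, 16.5 and 16.4 TPM at 4.5 g/liter. In WT clones it was at 11.3 and 10.6 TPM at 0 g/liter and at 14.8 and 14.6 TPM at 4.5 g/liter. Its groups did not overlap in either genotype. The log2 fold change of -0.57 in KO cells passed (adjusted p = 0.0108 from limma) and that of -0.40 in WT cells did not (adjusted p = 0.0999).

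In the Q module, NDUFA5, an accessory subunit (chr7:123536997-123557904), was at 31.5, 31.0 and 35.6 TPM in KO clones at 0 g/liter and at 38.9, 41.8 and 45.8 TPM at 4.5 g/liter. WT clones had 27.8 and 33.2 TPM at 0 g/liter and at 41.6 and 40.2 TPM at 4.5 g/liter. The ranges stayed apart in both genotypes, although KO clone 3 without glucose came within 4 TPM of KO clone 1 with it, and the log2 fold changes were -0.36 in KO cells and -0.42 in WT cells (adjusted p = 0.0341 and 0.048 from limma).

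NDUFS3, a core subunit of the Q module, was at 43.9, 42.4 and 52.8 TPM in KO clones at 0 g/liter and at 56.1, 63.3 and 59.8 TPM at 4.5 g/liter, and at 48.0 and 48.7 TPM in WT clones at 0 g/liter and at 62.0 and 64.3 TPM at 4.5 g/liter. The groups did not overlap in either genotype, and KO clone 3 was the highest without glucose. NDUFS3 had -0.36 in KO cells and -0.38 in WT cells (adjusted p = 0.0258 and 0.0549 from limma), so that nearly the same change fell on either side of the threshold. NDUFS7, which carries the last iron-sulfur cluster before ubiquinone, had -0.07 in KO cells and -0.21 in WT cells, neither past the threshold (adjusted p = 0.672 and 0.272).

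In complex III the call was UQCRFS1, the Rieske iron-sulfur protein, one of the subunits that carry electrons (chr19:29205320-29213151). It was at 26.7, 28.7 and 29.5 TPM in KO clones at 0 g/liter and at 38.9, 43.1 and 41.4 TPM at 4.5 g/liter. In WT clones it was at 26.3 and 27.8 TPM at 0 g/liter and at 41.5 and 42.7 TPM at 4.5 g/liter. The 5 libraries without glucose all lay below 30 TPM and the 5 with glucose all lay above 38 TPM. Its change had the smallest p of all members in both genotypes, with a log2 fold change of -0.53 in KO cells (SE 0.087, adjusted p = 0.00284 from limma) and -0.62 in WT cells (SE 0.107, adjusted p = 0.00501), which is 0.695 and 0.651 of the level with glucose on the log2(TPM + 1) scale.

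CYC1, the cytochrome c1 subunit that passes electrons to cytochrome c, was not called in either genotype in the reported fit. It was called lower in both with the clone as a fixed block, and in neither with it as a random block. It was at 89.9, 54.0 and 71.3 TPM in KO clones at 0 g/liter and at 109, 73.5 and 76.6 TPM at 4.5 g/liter, and at 81.9 and 70.8 TPM in WT clones at 0 g/liter and at 106 and 98.7 TPM at 4.5 g/liter. Every clone had the lower value without glucose, the KO groups overlapped and the WT groups did not, and the log2 fold changes were -0.27 in KO cells and -0.42 in WT cells (adjusted p = 0.334 and 0.241 from limma). UQCRH, the acidic hinge subunit that docks cytochrome c, went the other way in value. It was at 229, 345 and 427 TPM in KO clones at 0 g/liter, against 203, 268 and 326 TPM at 4.5 g/liter, and at 283 and 313 TPM in WT clones at 0 g/liter, against 235 and 252 TPM at 4.5 g/liter. Each clone was higher without glucose, but the clones lay so far apart that the log2 fold changes of 0.31 in KO cells and 0.29 in WT cells were not called (adjusted p = 0.337 and 0.484 from limma). With the clone as a fixed block UQCRH was called higher in both genotypes, and with it as a random block in neither.

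The promoter of UQCRFS1 holds the letters of a site for NRF1, the nuclear respiratory factor known for driving many respiratory genes, and the 3 stretches printed here show those letters in context. Promoters of 250 bases before to 50 after the gene start were taken from RefSeq (GRCh38.p14), where 63 of the 76 tested subunits had one. The letters GCGCANGCG, searched on both strands, occurred in 20 of the 63 (31.7%), against 8.05% of all 27305 promoters. That comparison set holds genes whether or not they are expressed in these cells, and was not matched for expression or base content. The ETS letters CCGGAAG occurred in 28.6% of the subunit promoters and 10.7% of all, and the YY1 letters AANATGGC in 33.3% and 6.82%. Letters of the antioxidant response element to which BACH1 and its partners bind, TGACNNNGC, were in 15.9% of the subunit promoters and 13.6% of all. The AP-1 and MAF core TGAGTCA was in 0 of 63 and in 4.92% of all. Letters of the ATF4 and C/EBP element, TGATGNAA, were in 1 of 63 (1.59%) and in 3.67% of all. The 1 was NDUFS6, where they begin 231 bases before the start, outside the stretch printed below. NDUFS6 also held the antioxidant response element letters on the opposite strand at -15 to -7 from the start. These lie inside the printed stretch and are not in capitals there. These are matches of letters and not sites shown to be bound. The 3 promoters below are those in which the NRF1 letters (capitals) lie wholly within the 120 bases before a start that RefSeq and GENCODE v44 place at the same base.
UQCRFS1 (chr19:29213152-29213271, minus strand): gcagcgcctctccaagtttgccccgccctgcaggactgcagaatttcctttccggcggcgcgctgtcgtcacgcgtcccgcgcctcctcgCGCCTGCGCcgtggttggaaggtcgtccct
NDUFAB1 (chr16:23596317-23596436, minus strand): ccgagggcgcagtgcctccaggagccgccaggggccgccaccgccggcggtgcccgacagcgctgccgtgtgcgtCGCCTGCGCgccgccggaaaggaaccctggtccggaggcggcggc
NDUFS6 (chr5:1801287-1801406, plus strand): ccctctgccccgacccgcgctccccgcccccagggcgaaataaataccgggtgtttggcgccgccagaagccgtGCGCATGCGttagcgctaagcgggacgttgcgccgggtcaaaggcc
The letters begin 30 bases before the start in UQCRFS1, 45 in NDUFAB1 and 46 in NDUFS6. NDUFAB1, the mitochondrial acyl carrier protein, had log2 fold changes of -0.24 in KO cells and -0.31 in WT cells. NDUFS6, a zinc-binding subunit of the N module, had -0.21 and -0.13. None of these was called without the clone block. Of the 20 subunits with these letters, 1 was called lower in KO cells (UQCRFS1) and 2 in WT cells (ATP5F1C and UQCRFS1). Their log2 fold changes ran between -0.53 and 0.19 in KO cells and between -0.62 and 0.22 in WT cells. The median was -0.12 in each genotype, against -0.08 for the members. Whether the letters go with the change was not tested.

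**Figure D3:**
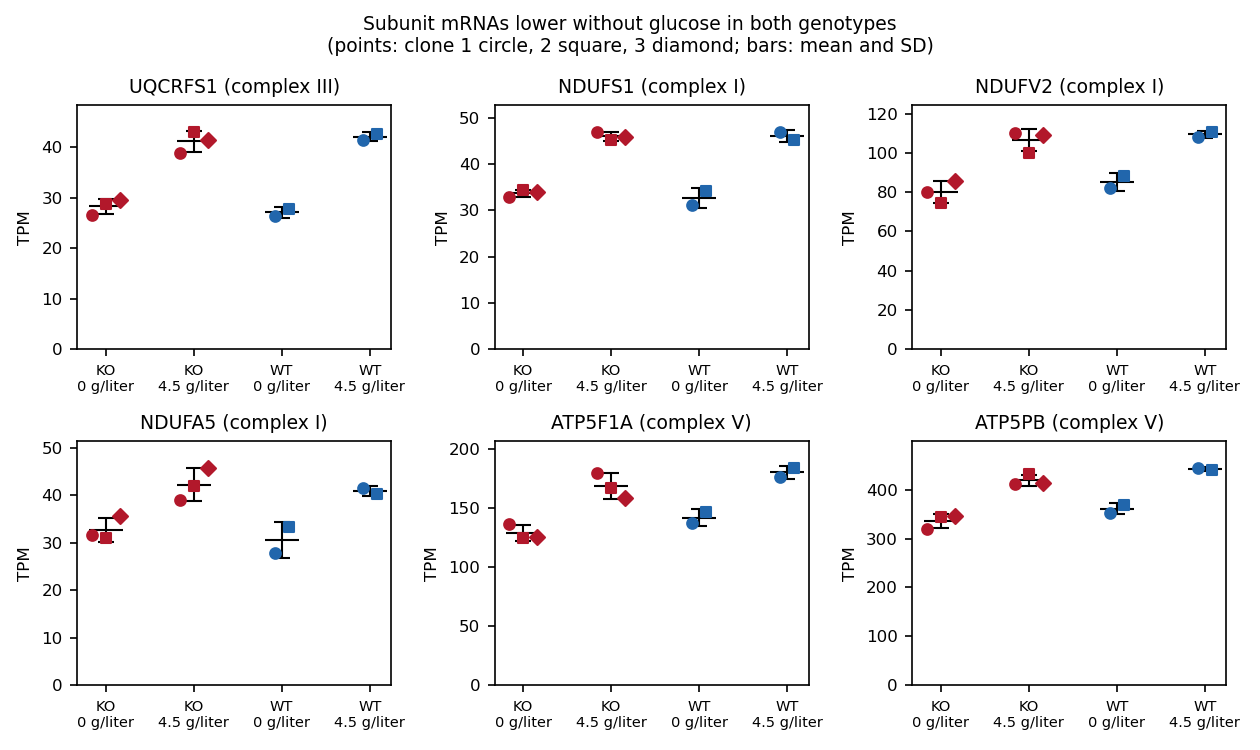
TPM of the 6 subunit mRNAs called lower without glucose in both genotypes, in BACH1 KO clones (red) and WT clones (blue) at 0 and 4.5 g/liter glucose. Points are clones and bars are the mean and SD (n = 3 KO, n = 2 WT clones), and within each genotype every clone at 0 g/liter lies below every clone at 4.5 g/liter.

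No complex IV subunit was called in either genotype in the fit without the clone block. With the clone as a fixed or a random block, and with median-ratio scaling, COX6A1 and COX7A2L were called higher in KO cells. Over all genes, 14.6% were higher in KO cells with the fixed block and 12.9% with that scaling. Under quantile normalization COX7A2L alone of complex IV was called higher in KO cells. No complex IV subunit was called in WT cells under these alternatives. COX4I1, the regulatory subunit that binds ATP, was at 227, 226 and 253 TPM in KO clones at 0 g/liter and 226, 242 and 244 TPM at 4.5 g/liter, and at 238 and 263 TPM in WT clones at 0 g/liter and 237 and 256 TPM at 4.5 g/liter. Its groups overlapped in both genotypes, and the intervals of its log2 fold change were -0.20 to 0.18 in KO cells and -0.21 to 0.25 in WT cells. COX5B, a zinc-binding subunit, had log2 fold changes of 0.12 in KO cells and 0.13 in WT cells, and the intervals reach 0.40 and 0.48.

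In KO cells the highest log2 fold changes of complex IV were those of COX7A2L, NDUFA4 and COX6A1, and in WT cells those of NDUFA4, COX7A2L and COX5B. COX7A2L, which links complexes III and IV into supercomplexes, was at 114, 123 and 147 TPM in KO clones at 0 g/liter and at 103, 95.3 and 114.5 TPM at 4.5 g/liter, and at 118 and 117 TPM in WT clones at 0 g/liter and 102 and 96.9 TPM at 4.5 g/liter. KO clone 1 without glucose overlapped KO clone 3 with it, and the log2 fold changes were 0.29 in KO cells and 0.24 in WT cells (adjusted p = 0.076 and 0.23 from limma). COX6A1 was at 549, 556 and 656 TPM in KO clones at 0 g/liter and 522, 482 and 547 TPM at 4.5 g/liter, and at 581 and 561 TPM in WT clones at 0 g/liter and 522 and 524 TPM at 4.5 g/liter. Its ranges did not overlap, by a margin of a few TPM in KO cells, and the log2 fold changes were 0.18 and 0.13 (adjusted p = 0.162 and 0.445 from limma). NDUFA4 had 0.19 in KO cells and 0.25 in WT cells (adjusted p = 0.355 and 0.351).

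Complex IV has subunits with tissue isoforms, and the cells used 1 of each set. COX4I2, found mainly in lung, and COX6A2 and COX7A1, found in heart and skeletal muscle, were listed at 0 in all 10 libraries, where COX6A1 averaged 550.0 TPM. COX6B2, the testis form, was at 0.0784 to 1.14 TPM, beside COX6B1 at 227 to 287 TPM. NDUFA4L2, a paralog of NDUFA4 known as a hypoxia-induced gene, was listed at 0 in 8 libraries, and was at 0.635 TPM in KO clone 3 and 0.0373 TPM in WT clone 1 at 0 g/liter. None of these 5 could be tested.

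In complex V the calls lay in the catalytic head, the c-ring and the peripheral stalk. ATP5F1A, the alpha subunit of the F1 head (chr18:46080248-46104334), was at 136, 125 and 125 TPM in KO clones at 0 g/liter and 179.7, 167 and 158 TPM at 4.5 g/liter. In WT clones it was at 137 and 147 TPM at 0 g/liter and at 176 and 184 TPM at 4.5 g/liter. Its groups did not overlap in either genotype, and the log2 fold changes were -0.39 in KO cells and -0.34 in WT cells (adjusted p = 0.0085 and 0.0373 from limma). ATP5F1B, the beta subunit that alternates with alpha in the same ring, was not called, with -0.04 in KO cells (95% interval -0.29 to 0.21) and -0.12 in WT cells (-0.42 to 0.19). Its groups overlapped in both genotypes.

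ATP5PB, the b subunit of the stalk that holds the head still (chr1:111448864-111462773), was at 320.4, 344 and 346 TPM in KO clones at 0 g/liter and at 413, 433 and 415 TPM at 4.5 g/liter. WT clones had 353 and 369.5 TPM at 0 g/liter and at 446 and 441 TPM at 4.5 g/liter. No value without glucose reached one with glucose, and the log2 fold changes of -0.32 in KO cells and -0.29 in WT cells were among the most precise of the set (SE 0.0698 and 0.0854, adjusted p = 0.00947 and 0.0364 from limma). ATP5F1C, the gamma subunit of the rotating shaft, was called in WT cells alone, with -0.23 in KO cells and -0.30 in WT cells (adjusted p = 0.0557 and 0.0474). ATP5F1E, the epsilon subunit of the same shaft, had positive values in every clone, with 0.23 and 0.17 (adjusted p = 0.15 and 0.395).

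The c-ring protein is made from ATP5MC1, ATP5MC2 and ATP5MC3, which encode the same mature protein with different import sequences. ATP5MC1 was at 125, 119.8 and 129.8 TPM in KO clones at 0 g/liter and 149, 142 and 136 TPM at 4.5 g/liter, and at 146 and 133 TPM in WT clones at 0 g/liter and 171 and 173 TPM at 4.5 g/liter. The ranges did not overlap in either genotype, and the log2 fold change was -0.19 in KO cells and -0.30 in WT cells, the second of them called (adjusted p = 0.0972 and 0.0473 from limma). ATP5MC3 had -0.21 and -0.20 (adjusted p = 0.0999 and 0.219), and ATP5MC2 had 0.07 and -0.0058 (adjusted p = 0.536 and 0.974). ATP5IF1, the inhibitor that blocks the enzyme from running backward, had -0.20 and -0.22 (adjusted p = 0.353 and 0.429). The 34 ATP5 pseudogene rows summed to 0.555 to 2.63 TPM per library, at most 0.0659% of the complex V sum, and ATP5PBP5, the 1 tested, was not called.

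Calls in WT cells rested on few clones. Without WT clone 1 or clone 2 at 0 g/liter, 1 and 2 members were called in WT cells, and without WT clone 1 or clone 2 at 4.5 g/liter, 1 and 0 were. Without KO clone 2 or clone 3 at 4.5 g/liter, which share the estimate of spread, the WT count was 3 and 4. The KO count was 13 without KO clone 1 at 0 g/liter, with 8 lower and 5 higher (ATP5F1E, ATP5MD, COX7A2L, UQCRH and UQCRQ). Shares of all genes called in these fits are not given, so the counts cannot be set against a background. In KO cells ATP5F1A, ATP5PB, NDUFS1, NDUFV2, NDUFV3 and UQCRFS1 stayed called without any 1 of the 10 libraries, with adjusted p of at most 0.0456 from limma. In WT cells UQCRFS1 lost its call without WT clone 2 at 4.5 g/liter alone (adjusted p = 0.0528), and NDUFS1 lost it without 3 of the 4 WT libraries (adjusted p of at most 0.0873).

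The KO clones differed in how the set as a whole moved. Of the 76 subunits, 62 had a lower value without glucose in KO clone 1, 50 in KO clone 2 and 32 in KO clone 3, against 53 in WT clone 1 and 57 in WT clone 2. The median change of the subunits was -0.22, -0.07 and 0.06 on the log2 scale in KO clones 1, 2 and 3, against -0.09 and -0.08 in the WT clones, while the median of all genes was between -0.18 and -0.11 in every clone. The order was the same in each complex, with KO clone 1 lowest and KO clone 3 highest. Summed over complex V, TPM without glucose was 19.4% lower in KO clone 1, 7.45% lower in KO clone 2 and 0.209% lower in KO clone 3. The complex I sum averaged 3723 ± 418 TPM in KO clones at 0 g/liter and 3951 ± 153 TPM at 4.5 g/liter (SD, n = 3), and 3693 ± 154 TPM in WT clones at 0 g/liter and 3942 ± 156 TPM at 4.5 g/liter (SD, n = 2). The KO groups overlapped, since clone 3 without glucose was highest of the 6.

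KO clone 1 also had the largest mitochondrially encoded share, at 29.1% at 0 g/liter and 29.7% at 4.5 g/liter. The share was 23.6% and 26.9% in KO clone 2 and 22.4% and 27.9% in KO clone 3. In WT clones 1 and 2 it was 24.7% and 23.3% at 0 g/liter, and 27.1% and 26.1% at 4.5 g/liter. The part of this share, or of its shift without glucose, in the values above was not tested. Without both libraries of KO clone 1, 14 members were lower in WT cells, with no share over all genes given for that count. In KO cells 8 members were lower and 5 higher (ATP5F1E, ATP5MD, COX7A2L, NDUFB11 and UQCRQ), where 25.8% of all genes were lower and 12.5% higher. The 8 lower genes were those called with it. The median of the members in KO cells was then -0.01.

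**Figure D4:**
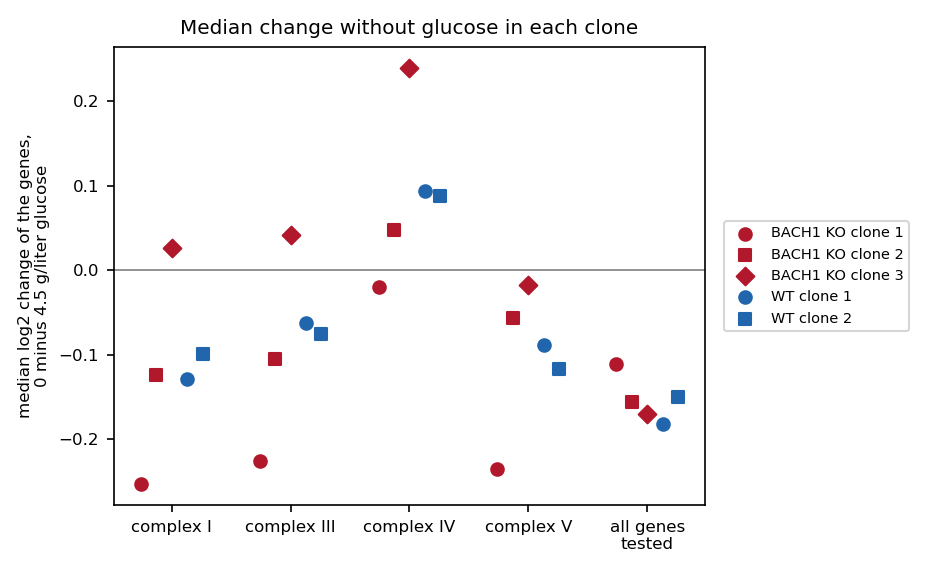
Median change of the subunits of each complex and of all 13418 genes tested, in each clone, as log2(TPM + 1) at 0 minus 4.5 g/liter glucose. The 3 BACH1 KO clones (red) are spread from clone 1 at the bottom to clone 3 at the top in each complex, the 2 WT clones (blue) lie between them, and the 5 clones lie close together for all genes.

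Some subunits separated clones more than conditions. NDUFB11, a membrane-arm subunit, had the largest SD within groups of all 76 (0.49 on the log2 scale). It was at 29.2, 62.7 and 65.1 TPM in KO clones 1, 2 and 3 at 0 g/liter and at 26.1, 54.1 and 48.2 TPM at 4.5 g/liter, and at 53.4 and 53.1 TPM in WT clones at 0 g/liter and 43.0 and 50.1 TPM at 4.5 g/liter. KO clone 1 was thus the lowest at both glucose levels, and each clone was higher without glucose. ATP5ME and NDUFS5 came next, with SDs of 0.43 and 0.38, and were lowest in KO clone 1 and higher in KO clones 2 and 3 than in either WT clone at the same glucose level. COX6C ran the other way, at 193.8 and 193.5 TPM in KO clone 1 at 0 and 4.5 g/liter, against 121 to 160.0 TPM in the other 8 libraries.

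Loss of BACH1 was followed by no called change of a subunit mRNA at either glucose level. At 0 g/liter, 0 of the 77 members were called between BACH1 KO and WT cells and 0 had an unadjusted p under 0.05, against 0.0373% of all genes called and 2.9% with such a p. At 4.5 g/liter, 0 were called and 1 had an unadjusted p under 0.05, against 0.0745% and 3.17% of all genes. The 1 was ATP5MC1, with a log2 difference of -0.27 (95% interval -0.47 to -0.08, unadjusted p = 0.0112, adjusted p = 1 from limma), and both WT clones lay above all 3 KO clones. At 0 g/liter its difference was -0.16 (95% interval -0.36 to 0.04). Both comparisons gave a count of 0 under each alternative that could be fitted.

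The intervals bound what may have been missed. At 0 g/liter the median difference of the members was -0.02, against -0.02 for all genes, and the 95% interval lay within 0.5 of 0 on the log2 scale for 59 of the 76 subunits and within 1 for 75. At 4.5 g/liter the median was -0.04, against -0.03, and the counts were 61 and 74. By complex the median differences at 0 g/liter were 0.0037 for complex I, 0.0035 for complex III, 0.02 for complex IV and -0.04 for complex V, and at 4.5 g/liter they were -0.03, -0.07, -0.04 and -0.09. The subunits least bounded were those that separate clones, with NDUFB11 at -0.11 (95% interval -0.94 to 0.72) at 0 g/liter and at -0.18 (-1.01 to 0.65) at 4.5 g/liter. Without KO clone 1 the members' median at 0 g/liter was 0.05.

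**Figure D5:**
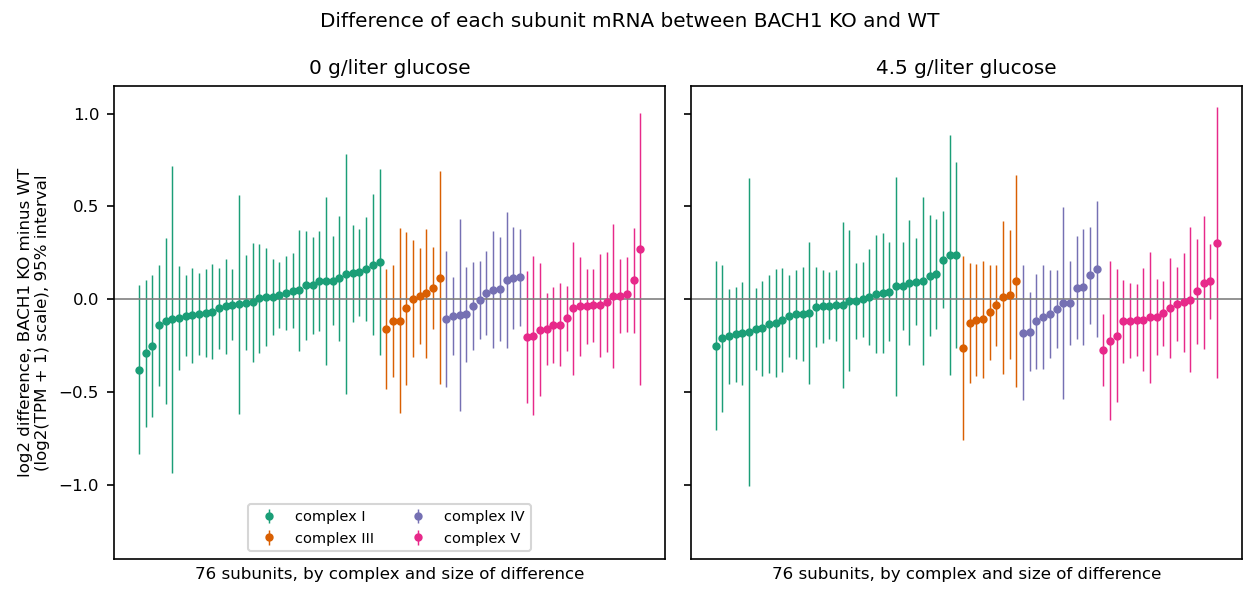
Log2 difference of each of the 76 subunits between BACH1 KO and WT cells with its 95% interval, at 0 g/liter (left) and 4.5 g/liter glucose (right), colored by complex and ordered by size within it. Nearly every interval spans 0, the exception being ATP5MC1 at 4.5 g/liter, and the widest belongs to NDUFB11.

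The response to glucose did not differ detectably between the genotypes. For the difference in response, 0 of 77 members were called and 0 had an unadjusted p under 0.05, against 0.00745% and 1.01% of all genes. The members' median was 0.02, as for all genes. NDUFB6, a membrane-arm subunit, had the smallest p, with a difference of 0.27 (95% interval -0.12 to 0.67, unadjusted p = 0.153, adjusted p = 0.9998 from limma). The 95% interval lay within 0.5 of 0 for 44 subunits and within 1 for 73, and larger differences in response lie within the intervals of the others. In 2 of the 76 subunits, NDUFA7 and NDUFB6, all KO clones moved one way and all WT clones the other, against 1.35% of all genes. The contrasts share libraries and are not independent of each other.

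Other genes of the pathway were read in the same comparisons. Of the 4 subunits of complex II, which links the citric acid cycle to the chain and pumps no protons, SDHA, its flavoprotein, was lower in both genotypes. It was at 104, 106 and 101.1 TPM in KO clones at 0 g/liter and 160.2, 163 and 142 TPM at 4.5 g/liter, and at 107 and 105 TPM in WT clones at 0 g/liter and 163 and 168 TPM at 4.5 g/liter. Its groups were far apart, with log2 fold changes of -0.57 in KO cells and -0.64 in WT cells (adjusted p = 0.00133 and 0.00295 from limma), close to those of UQCRFS1. Neither CYCS, cytochrome c, nor HCCS, which attaches its heme, was called.

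Assembly factors, which build the complexes but are not part of them, were called lower in 14 of 54 cases in KO cells (25.9%) and 11 of 54 in WT cells (20.4%), and higher in 0. The backgrounds were 19.9% and 15.9%. Complex IV, with 0 of its 12 subunits called without the clone block, had 8 of 25 assembly factors lower in KO cells and 7 in WT cells. PET117, TACO1, a translational activator of COX1, and COX18, which inserts COX2 into the membrane, led in KO cells with log2 fold changes of -0.83, -0.45 and -0.50. TACO1, SCO1, a copper chaperone, and COX18 led in WT cells with -0.59, -0.63 and -0.62. For complex I, 5 of 18 were lower in KO cells and 2 in WT cells. ACAD9 was lower in both (-0.52 in KO cells and -0.50 in WT cells). For complex III, 1 of 6 was lower in KO cells (UQCC3, -0.63) and 2 in WT cells (UQCC3, -0.77, and BCS1L, which inserts the Rieske protein, -0.45), and for complex V 0 of 5.

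Subunits encoded in the mitochondrial genome were lower in 3 of 13 cases in KO cells (MT-ND6 at -0.93, MT-ATP8 at -0.38 and MT-CYB at -0.27) and 2 in WT cells (MT-ND6 at -0.87 and MT-CYB at -0.33), and none was higher. These are 23.1% and 15.4% of the list, against 19.9% and 15.9% of all genes. Libraries were made from polyadenylated RNA. Mitochondrial ribosomal proteins were lower in 18 of 75 cases in KO cells (24%) and 17 in WT cells (22.7%), against the same backgrounds, and MRPL18 was the 1 higher in both. Their medians of -0.21 and -0.26 lay below those of all genes, where the medians of the respiratory subunits lay above.

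Among 13 regulators of mitochondrial gene expression, 3 were higher and 4 lower in KO cells, and 2 were higher and 3 lower in WT cells. Over all genes, 9.05% were higher and 19.9% lower in KO cells, and 7.47% higher and 15.9% lower in WT cells, against 23.1% and 30.8% of the list in KO cells and 15.4% and 23.1% in WT cells, a gap of about 1 to 2 genes in each. MYC was at 194, 248.8 and 237 TPM in KO clones at 0 g/liter and 111.5, 102 and 94.7 TPM at 4.5 g/liter, and at 215 and 212 TPM in WT clones at 0 g/liter and 104 and 99.8 TPM at 4.5 g/liter, so that its groups did not overlap. TFB2M, a mitochondrial transcription factor, was higher by 0.97 on the log2 scale in both genotypes. NRF1 was at 8.96, 8.65 and 9.64 TPM in KO clones at 0 g/liter and 11.9, 12.5 and 13.7 TPM at 4.5 g/liter, and at 7.28 and 8.18 TPM in WT clones at 0 g/liter and 12.9 and 13.9 TPM at 4.5 g/liter. Its groups did not overlap either, with log2 fold changes of -0.44 in KO cells and -0.73 in WT cells (adjusted p = 0.0153 and 0.00627 from limma). PPRC1, a coactivator of the same program, and POLRMT, the mitochondrial RNA polymerase, were lower in both genotypes, TFAM was lower in KO cells (-0.36), and PPARGC1A was higher in KO cells (1.05). No gene of these lists was called between genotypes or for a difference in response.

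Transcript length went with the change in value. Over the 76 subunits, Spearman's rho between the length of the canonical GENCODE transcript and the log2 fold change was -0.22 in KO cells and -0.31 in WT cells. Over the 12360 of the 13418 genes with a length it was -0.12 and -0.10. Genes are not independent replicates and all share the same libraries, so no p is given. Of 29 subunits of 1000 bases or more, 6 were called lower in KO cells and 7 in WT cells, and of 47 shorter ones, 2 in each. Over all genes, 2502 of 11375 long ones and 67 of 985 short ones were lower in KO cells, and 2029 and 45 in WT cells. The median log2 fold change of the 47 short subunits was -0.07 in KO cells and -0.06 in WT cells. For all short genes it was 0.01 and -0.0092. The 29 long subunits had medians of -0.08 and -0.14, against -0.17 and -0.19 for all long genes. The part of length in the calls was not tested.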

How the data were processed

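RNA from 10 cultures of MDA-MB-231 clones was sequenced by the authors as single-end, polyadenylated libraries. Their processing notes name bcl2fastq 2.19, kallisto 0.44.0 and GRCh38.p12. The deposited values are TPM per gene symbol, with the same sum in each library. The annotation release and the sum over transcripts are not given in the sources used here, nor are counts used, so no count test was run and the depth is unknown. How kallisto shares reads among near-identical copies and overlapping genes can move single values.

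The 27 gene names turned into dates by spreadsheet software were dropped. They took 0.107 to 0.151% of TPM. Log2(TPM + 1) of the 13418 genes with at least 1 TPM in 2 libraries was modelled in R 4.3.3 by limma 3.58.1 (1 mean per group, trended empirical Bayes, two-sided, Benjamini-Hochberg over all genes). Fold changes on this scale understate changes of low genes. An exact permutation test of 3 clones against 3, or fewer, cannot reach 0.05. With 1 library per clone and condition, p-values rest on differences among clones. No 2 libraries held identical values. The fit was also run on simulated data with independent noise in each library. That run does not copy the correlation between libraries of a clone given below, so it does not bear on it.

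Libraries of a clone pair across glucose levels because they come from the same cells. Over all 13418 genes, deviations from group means correlated at 0.609, 0.426 and 0.507 in KO clones and 0.0991 in WT clones. Over the members they correlated at 0.827, 0.776 and 0.767 in KO clones and 0.509 in WT clones. The reported fit leaves this pairing out, so the clone was also fitted as a block.

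All 116 members matched GENCODE v44 or RefSeq names, ATP5MD and ATP5MPL by older symbols. Complexes and modules were assigned from textbook knowledge. Members, lists and tests were chosen with earlier results of these data known. Members are named if they were called with a mean of at least 5 TPM in a group, were among the 6 smallest p of a comparison, belong to fixed core or isoform sets, are the most or least abundant of a complex, or missed the filter. From other lists the 3 called genes with the smallest p are named. ATP5F1D, ATP5MD, ATP5ME, COX6C, MRPL18, NDUFA13, NDUFA3, NDUFA7, NDUFAB1, NDUFB11, NDUFB7, NDUFS5, NDUFS6 and UQCRQ, and further regulators, were named after their values were seen. Alternatives were a pseudocount of 0.1, other filters, 3 scalings, the block, untrended variances and leaving out libraries. Figures were drawn with matplotlib 3.10.9. The values of 1 member are not reported here.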

Additional observations from a re-analysis of the deposited data

How the results depend on the processing

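The 17 member calls (9 in WT and 8 in BACH1 KO cells) kept their direction under every alternative run, and all 17 held with a pseudocount of 0.1, with at least 5 TPM in all libraries, with TPM rescaled without mitochondrially encoded genes, with either form of the clone block and without BACH1 KO clone 1, which was left out after seeing the data. Median-ratio scaling kept 4 of the 17, quantile normalization 7, untrended variances 10 and no filter 15. The count of members called in KO cells, 8 in the reported fit, was 14 with TPM rescaled without mitochondrially encoded genes, 22 with the clone as a fixed block, 18 with it as a random block and 13 without KO clone 1. In WT cells, with 9 reported, it was 2 under median-ratio scaling, 2 under quantile normalization, 2 with untrended variances, 17 and 15 with the fixed and the random block, and 14 without KO clone 1. Leaving out 1 library gave 6 to 13 in KO cells and 0 to 10 in WT cells. Where this leaves 1 clone in a group, that clone is assumed to vary like the others. Calls over all genes moved as well. With the fixed block, 31.9% of genes were lower and 14.6% higher in KO cells, against 19.9% and 9.05% in the reported fit. In WT cells these were 28.6% and 12.4%, against 15.9% and 7.47%. Median-ratio scaling gave 5.78% lower and 10.2% higher in WT cells. Without KO clone 1, 25.8% were lower and 12.5% higher in KO cells. Other shares of all genes are not given here, so the other counts cannot be set against a background. The block estimates 1 spread over both genotypes, and the cause of the moves was not tested. Counts between genotypes and for the difference in response were 0 under every alternative that could be fitted. Unknown depth limits what can be said of genes near 1 TPM.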

Other observations

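In 2 of the 76 subunits, NDUFA7 and NDUFB6, all KO clones moved one way without glucose and all WT clones the other, as 1.35% of all genes did. NDUFB6 was at 33.8, 39.1 and 43.1 TPM in BACH1 KO clones at 0 g/liter and at 33.4, 37.0 and 34.1 TPM at 4.5 g/liter, and at 31.8 and 36.9 TPM in WT clones at 0 g/liter and 37.9 and 37.4 TPM at 4.5 g/liter. The steps in KO clone 1 and WT clone 2 were under 1 TPM, and the difference in response was not called (unadjusted p = 0.153, adjusted p = 0.9998 from limma).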
